A study of Oryza sativa Indica Group with 18 samples.

Results

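Transcript levels in drought-stressed seedlings were compared between IR20 and Dagad deshi, 2 indica cultivars of rice. Of the 18 arrays of the series, 6 belong to this comparison. They are the 3 arrays labelled IR20 and the 3 labelled Dagad deshi after 6 h of drought, chosen by their labels and by no measured value. The seedlings were 7 days old, had been raised without soil in a nutrient medium, and were stressed by laying them on filter sheets. RNA was taken from whole seedlings, root and shoot together. The labels call the 3 arrays of a group biological replicates, without naming the cultures or the number of seedlings behind each. The p-values given here therefore measure only the spread between these samples, which may be technical. No control array entered the comparison, so it was not read here whether a difference was present before the stress.

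The array carries groups of short oligonucleotides, called probe sets, most of which were made for 1 transcript while some read several. The deposited value is a linear intensity for each of 57381 probe sets. After 123 control probe sets were left out, 57258 were compared. Values are given as log2(intensity + 16), and every difference is IR20 minus Dagad deshi on that scale, so that a negative difference is a higher level in Dagad deshi. A fold given beside it is 2 raised to that difference, which understates the change of genes with low intensity. Differences were tested with limma over the 6 arrays, and a probe set was called at a Benjamini-Hochberg adjusted p under 0.05. Intensities under 16, which are values under 5 on the log2 scale, are described as near the floor, since the median probe set of an array lay at an intensity of 7.24 to 7.43. The file holds no detection calls. A probe set reads the amount of a transcript and the match of the cultivar's sequence to its oligonucleotides at once, and these cannot be told apart here.

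A drying rice seedling accumulates abscisic acid. This hormone binds PYL receptors, which then block PP2C phosphatases and so release the SAPK kinases that switch on stress genes. Dehydrins and other LEA proteins protect dehydrating cells, heat shock proteins hold damaged proteins in solution, and aquaporins let water cross membranes. Rice also makes diterpenoid phytoalexins, the momilactones and phytocassanes, which are antimicrobial compounds whose enzymes are encoded in gene clusters.

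One array stood apart. The ratio of signal at the 3' end to signal at the 5' end of control transcripts (3'/5' index, mean log2 ratio of actin, GAPDH and cyclophilin probe sets), which grows as RNA is degraded or labelled short, was 3.19 in IR20 replicate 1. It was 1.82 and 1.86 in IR20 replicates 2 and 3, and 1.81, 2.15 and 2.05 in Dagad deshi replicates 1 to 3. The cultivars did not differ in this index by more than the spread of their arrays (2.29 ± 0.778 in IR20 and 2.01 ± 0.174 in Dagad deshi, SD, n = 3 each; two-sided exact permutation test, p = 0.8, where the smallest p that 3 arrays against 3 allow is 0.1). The log2 values of IR20 replicates 2 and 3 differed from each other with an SD of 0.112 over all probe sets, while either differed from replicate 1 with an SD of 0.232 or 0.239. Several counts are therefore also given without IR20 replicate 1.

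Of the 57258 probe sets, 7834 (13.7%) were called. A higher level in IR20 was called for 3747 (6.54%) and a higher level in Dagad deshi for 4087 (7.14%), while the median difference over all probe sets was 0.0006. At an unadjusted p under 0.05 there were 13112. The arrays of the cultivars did not overlap for 15396 probe sets (26.9%). Without IR20 replicate 1, 6946 were called, and over the 6 ways of leaving out 1 array the count ran from 5329 to 6946. Among the called probe sets the difference was over 1 log2 unit for 1126 that were higher in IR20 and 1054 that were higher in Dagad deshi, and over 4 units for 74 and 25. Of the 74, 49 were near the floor on all 3 Dagad deshi arrays, and of the 25, 20 were near the floor on all 3 IR20 arrays. Read by genes, with the brightest probe set standing for each, 17905 genes were compared. Of these, 2458 (13.7%) were called higher in IR20 and 2632 (14.7%) higher in Dagad deshi, with a median difference of 0.0. These shares are the background against which the gene lists below are to be read. They include genes near the floor. With only the probe sets above the 60th percentile of mean level tested, 9437 were called, more than among all probe sets. Of these, 4384 were higher in IR20 and 5053 higher in Dagad deshi. A list of well expressed genes may thus exceed these shares without differing more than other expressed genes, and no share over expressed genes was computed.

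**Figure D1:**
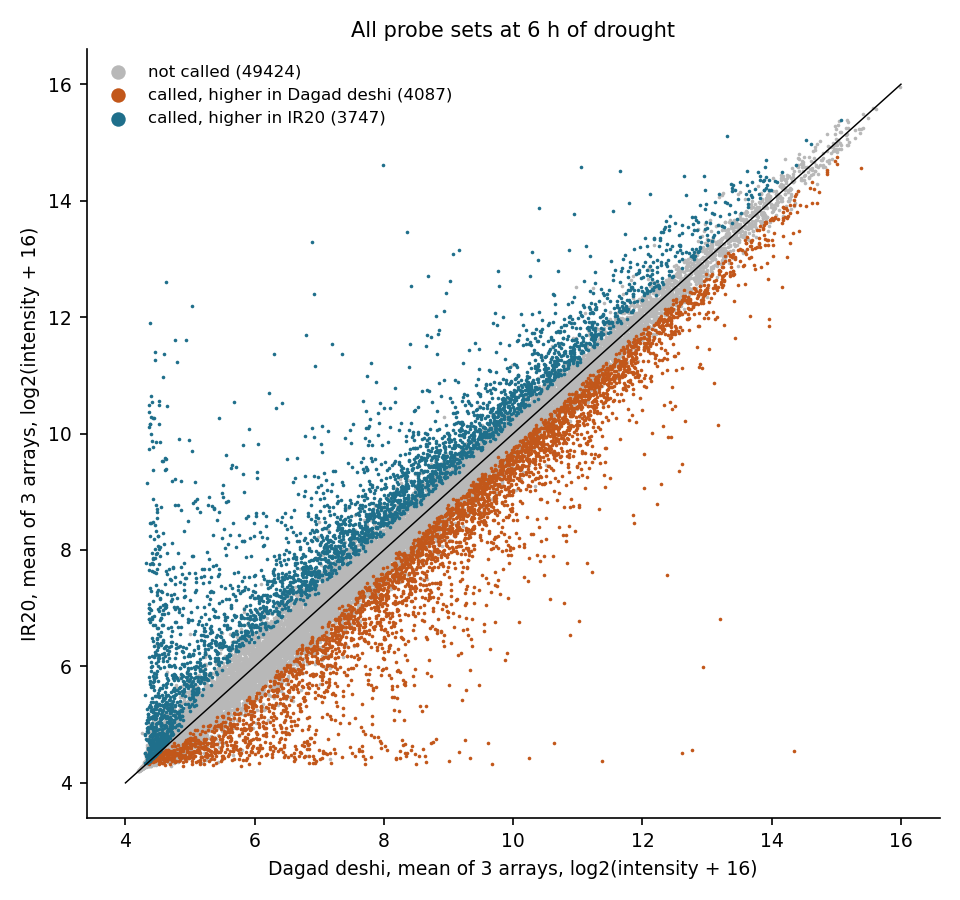
Mean log2(intensity + 16) of the 3 IR20 arrays (vertical) against that of the 3 Dagad deshi arrays (horizontal) at 6 h of drought, 1 point for each of 57258 probe sets, coloured by call. The 3747 probe sets called higher in IR20 and the 4087 called higher in Dagad deshi lie on either side of the line of equal level, and a column and a row of points at the lower left edges are probe sets near the floor in 1 cultivar.

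Among named genes, each read by its brightest probe set, the largest difference was that of AMY1.1, an alpha-amylase that breaks down starch in germinating grain. Its log2 values were 13.93, 14.04 and 10.81 on the Dagad deshi arrays and 6.07, 6.07 and 5.83 on the IR20 arrays. All Dagad deshi arrays lay above all IR20 arrays, but Dagad deshi replicate 3 lay well below the other 2. The difference was -6.94 ± 0.896 (SE), or 123-fold (adjusted p = 0.00551). LOC4330830, which has no gene name in the tables and lies directly next to AMY1.1 in the RefSeq annotation, measured 11.84, 11.76 and 8.29 in Dagad deshi and 4.75, 4.59 and 4.69 in IR20. It too was lowest in Dagad deshi replicate 3, and its difference of -5.95 (adjusted p = 0.0136) was no longer called without IR20 replicate 2 or 3 (adjusted p = 0.0627 and 0.0578). Its other probe sets had differences of -2.75 and -1.08, neither of them called. EP3A, a cysteine protease of the germinating seed, measured 10.03, 9.35 and 8.09 in Dagad deshi and 4.58, 4.48 and 4.52 in IR20, where it was near the floor. Dagad deshi replicate 3 was again the lowest of its group, and the difference was -4.63 ± 0.483 (SE) (adjusted p = 0.00255).

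Other named genes with much higher levels in Dagad deshi had tight replicates. BURP10, a gene for a protein with a BURP domain, measured 9.84, 9.76 and 9.44 in Dagad deshi and 4.31, 4.33 and 4.32 in IR20, a difference of -5.36 ± 0.122 (SE) (adjusted p = 2.03e-05). GER3, a germin-like protein of the cell wall, measured 9.48, 9.59 and 9.77 in Dagad deshi and 4.72, 4.73 and 4.62 in IR20, a difference of -4.92 ± 0.0992 (SE) (adjusted p = 1.29e-05). Both were near the floor on every IR20 array. BGLU9, a beta-glucosidase, was 20.3-fold higher in Dagad deshi (10.98, 10.73 and 10.93 against 6.42, 6.62 and 6.56, adjusted p = 1.51e-05). LPR1, a multicopper oxidase whose Arabidopsis relative acts in the root response to low phosphate, was 12.9-fold higher (10.84, 10.97 and 10.54 against 7.21, 7.06 and 6.997, adjusted p = 7.09e-05). Pir7b, an esterase known for its induction by bacteria, was 8.88-fold higher (12.41, 12.46 and 11.999 against 9.39, 8.92 and 9.10, adjusted p = 0.000288). In each of these genes the arrays of the cultivars were separated by a gap wider than the spread within either group.

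In the other direction, ACO1, an enzyme of the last step of ethylene synthesis, measured 13.42, 13.30 and 13.16 in IR20 and 6.85, 7.11 and 6.68 in Dagad deshi. The difference was 6.41 ± 0.127 (SE), or 85.1-fold (adjusted p = 1.24e-05), and the IR20 values stayed close together. The gene listed as pinA measured 14.74, 14.47 and 14.64 in IR20 and 7.81, 7.94 and 8.22 in Dagad deshi, a difference of 6.63 ± 0.125 (SE) (adjusted p = 1.02e-05). A pair of class III peroxidases, which act on hydrogen peroxide and phenolics in the cell wall, followed. PRX74 measured 11.71, 11.69 and 11.65 in IR20 and 6.72, 6.90 and 6.75 in Dagad deshi (29.8-fold, adjusted p = 2.72e-06). PRX112 measured 9.17, 9.17 and 9.02 and 5.55, 5.63 and 5.36 (12.2-fold, adjusted p = 3.5e-05). OC-XII, a cystatin that inhibits cysteine proteases, was 17.4-fold higher in IR20 (12.65, 12.47 and 12.50 against 8.34, 8.59 and 8.32, adjusted p = 2.12e-05). BURP2, of the same family as BURP10, was 15.8-fold higher in IR20 (13.13, 13.17 and 13.14 against 9.18, 9.34 and 8.97, adjusted p = 2.43e-05), so that members of the BURP family were called in opposite directions. BGLU16, a beta-glucosidase like BGLU9, was 11-fold higher in IR20 (12.37, 12.41 and 12.49 against 8.99, 8.77 and 9.12, adjusted p = 3.72e-05).

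**Figure D2:**
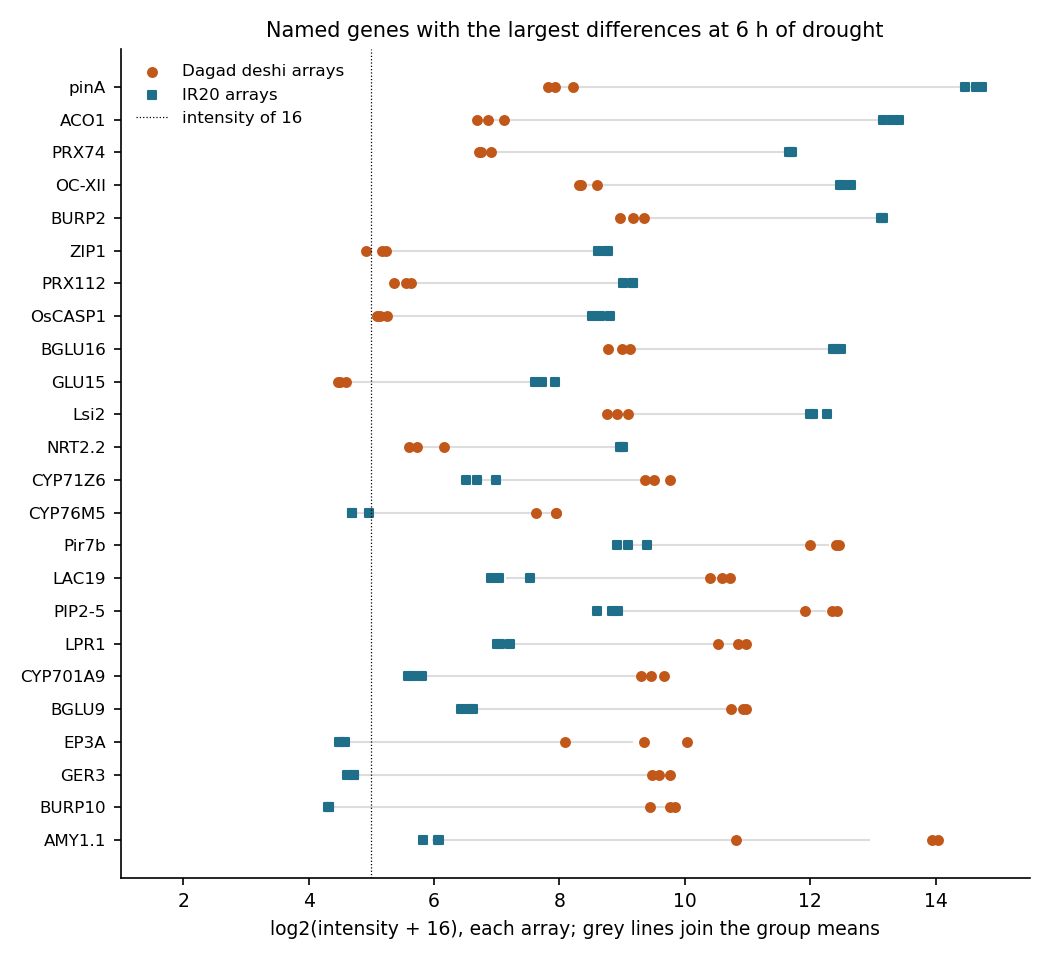
Log2(intensity + 16) on each array (Dagad deshi, circles; IR20, squares) for the 12 named genes with the largest difference in each direction; grey lines join the group means and the dotted line marks an intensity of 16. Replicates lie close together except for AMY1.1 and EP3A in Dagad deshi, where replicate 3 is the lowest.

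Several of the largest differences belong to genes known only by number. LOC4347027 measured 12.12, 11.76 and 11.82 in IR20 and 4.33, 4.33 and 4.47 in Dagad deshi, a difference of 7.53 ± 0.113 (SE) (adjusted p = 4.17e-06). LOC4342250 (11.21, 11.23 and 11.36 against 4.46, 4.47 and 4.45) and LOC4336614 (11.51, 11.27 and 11.30 against 4.57, 4.62 and 4.59) had differences of 6.80 and 6.76. All were near the floor on every Dagad deshi array. In Dagad deshi, LOC4330137 measured 12.37, 12.36 and 12.39 against 7.49, 7.67 and 7.56 in IR20, and LOC4350879 measured 9.06, 8.95 and 8.996 against 4.38, 4.38 and 4.38. The widest gap of all was in a probe set that the tables tie to no gene and that was picked out after the values were seen. It measured 14.23, 14.46 and 14.36 in Dagad deshi and 4.55, 4.54 and 4.54 in IR20, a difference of -9.81 (adjusted p = 8.8e-07). The widest in the other direction, also tied to no gene, had 12.59, 12.73 and 12.50 in IR20 and 4.60, 4.61 and 4.65 in Dagad deshi (difference 7.99, adjusted p = 1.18e-06).

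Probe sets of 1 gene did not always read the same difference. Of the 210 genes with several probe sets whose brightest was called with a difference over 1, the others all had the same sign in 169, and in 4 another was called in the opposite direction. OsPP2C45, a PP2C phosphatase singled out after its values were seen, was the clearest case. Its brighter probe set measured 11.67, 11.71 and 11.54 in Dagad deshi and 11.41, 11.39 and 11.36 in IR20, a difference of -0.25 (adjusted p = 0.0376) whose call held without Dagad deshi replicate 3 but not without any other array. Its second probe set measured 12.81, 12.73 and 12.76 in Dagad deshi and 4.56, 4.57 and 4.56 in IR20, a difference of -8.21 (adjusted p = 5.45e-07). In IR20 the gene was thus read as well expressed by 1 probe set and near the floor by the other.

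Most of the enzymes of diterpenoid phytoalexin synthesis were called higher in Dagad deshi. Of 17 measured genes, 13 were called higher in Dagad deshi and none in IR20, with a median difference of -0.91, against 14.7% and 13.7% of all genes. The list was added after the values were seen and is a description. Without IR20 replicate 1 the count was 12. CPS4, the cyclase that makes the first intermediate of the momilactone branch, measured 10.37, 10.32 and 10.60 in Dagad deshi and 8.31, 8.10 and 8.04 in IR20, a difference of -2.28 ± 0.108 (SE) (adjusted p = 0.000173). KSL4, the synthase of the next step, measured 7.83, 7.78 and 7.83 against 6.43, 6.59 and 6.54 (-1.29 ± 0.0732 (SE), adjusted p = 0.000317). The cytochrome P450 enzyme CYP99A3, which oxidises the product of KSL4, measured 12.29, 12.37 and 12.33 against 10.54, 10.53 and 10.42 (-1.83 ± 0.0498 (SE), adjusted p = 3.5e-05). CYP99A2, directly next to KSL4, and OsMAS, the dehydrogenase named for momilactone A synthase, had smaller differences of -0.91 and -0.85, both called. With the spread taken from all 18 arrays of the series, CYP99A2 was not called (adjusted p = 0.25). In the RefSeq annotation these 5 genes lie within 1 stretch, where 7 genes, CYP99A3, OsMAS and KSL4 among them, lie between CPS4 and CYP99A2, and all 5 were called higher in Dagad deshi.

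A second stretch carries enzymes of the phytocassane branch among other genes. Those given here were not sorted by branch, so their differences are not a reading of that branch. CYP76M5 measured 7.95, 7.95 and 7.63 in Dagad deshi and 4.96, 4.70 and 4.69 in IR20, near the floor (-3.06 ± 0.142 (SE), adjusted p = 0.000166). CYP71Z6 measured 9.37, 9.76 and 9.51 against 6.69, 6.99 and 6.51 (-2.82 ± 0.16 (SE), adjusted p = 0.000321). Both are cytochrome P450 enzymes, and their arrays did not overlap between the cultivars. CYP76M8 (-1.34 ± 0.0889 (SE)), CYP71Z7 (-0.73 ± 0.084 (SE)) and the synthase KSL7 (-0.50 ± 0.106 (SE)) were also called, KSL7 with an adjusted p of 0.0334 that passed 0.05 in only 1 of the 6 fits with an array left out. With the spread of all 18 arrays neither KSL7 (adjusted p = 0.161) nor CYP71Z7 (0.403) was called. A further probe set of KSL7, near the floor in both cultivars, was called the other way with a difference of 0.15. CPS2, the cyclase at the head of this branch, measured 7.64, 7.82 and 7.54 in Dagad deshi and 7.80, 7.94 and 7.61 in IR20 and was not called (0.11, adjusted p = 0.701). KS6 and CYP76M6 in the same stretch were near the floor in both cultivars. The neighbours therefore did not all differ, and CPS2, which makes the first intermediate of the branch, overlapped between the cultivars. Away from these stretches, CYP701A9 and CYP701A8, P450 enzymes of the kaurene oxidase family with 1 gene between them, were 13.8-fold (9.45, 9.30 and 9.66 against 5.67, 5.58 and 5.82) and 3.19-fold (11.14, 11.10 and 11.50 against 9.53, 9.84 and 9.37) higher in Dagad deshi. KSL10, a synthase of the oryzalexin branch, was 1.87-fold higher at a low level (5.30, 5.43 and 5.56 against 4.52, 4.55 and 4.52), and CYP76M7 was near the floor in both cultivars.

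**Figure D3:**
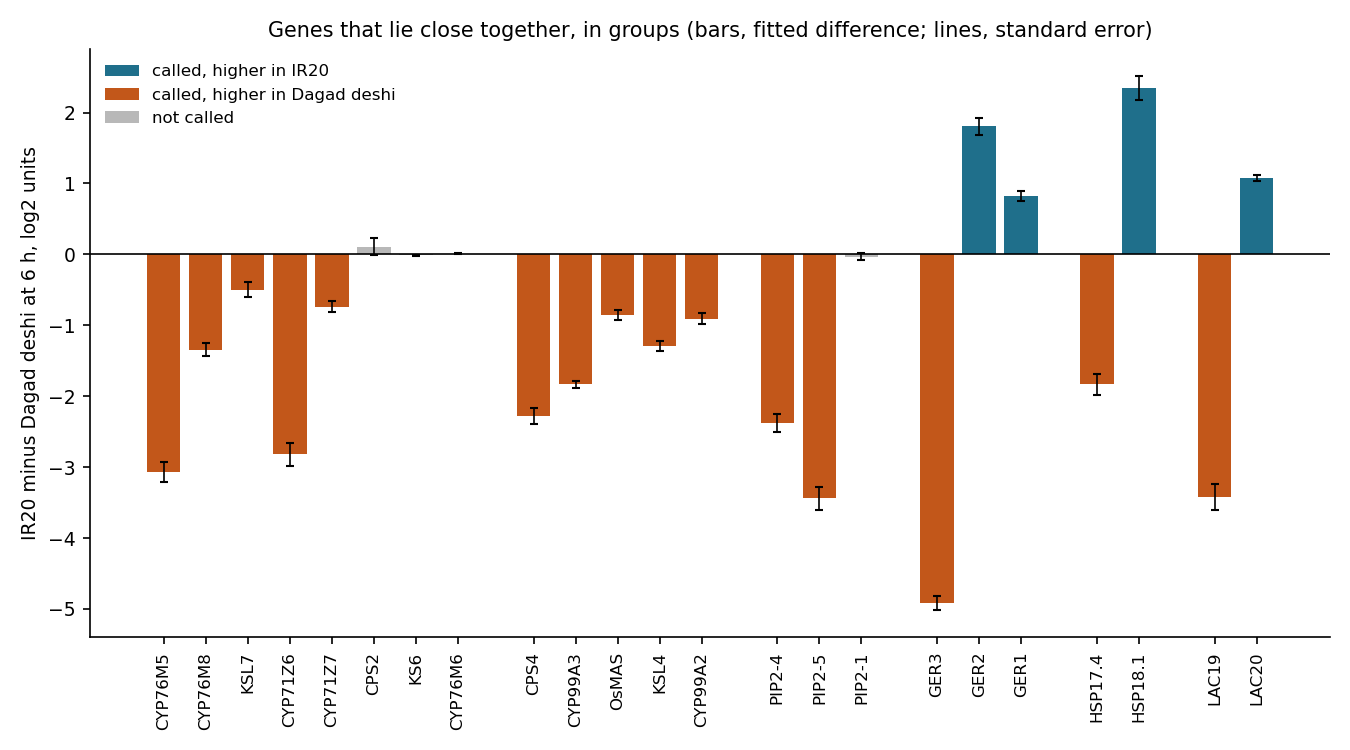
Fitted difference (IR20 minus Dagad deshi, log2 units; lines, standard error; n = 3 arrays each) for genes that lie close together in the RefSeq annotation, in groups separated by gaps. The first group (CYP76M5 to CYP76M6) and the second (CPS4 to CYP99A2) are the phytoalexin stretches, called higher in Dagad deshi but for CPS2, KS6 and CYP76M6, and the last groups show germin-like proteins, small heat shock proteins and laccases called in opposite directions next to each other.

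Water channels of the plasma membrane (PIP) differed in both directions. Of 10 genes, 3 were called higher in Dagad deshi and 1 in IR20, with a median of -0.08. PIP2-5 measured 12.42, 12.35 and 11.92 in Dagad deshi and 8.94, 8.84 and 8.60 in IR20 (-3.44 ± 0.162 (SE), 10.8-fold, adjusted p = 0.000171). PIP2-4, with 1 gene between it and PIP2-5, measured 12.11, 12.16 and 11.79 against 9.80, 9.64 and 9.49 (-2.38 ± 0.128 (SE), 5.19-fold, adjusted p = 0.000268). PIP2-1, directly next to PIP2-5, measured 15.17, 15.15 and 15.19 against 15.13, 15.12 and 15.16 and was not called by its brightest probe set (-0.03, adjusted p = 0.84). A dimmer probe set of PIP2-1 was called higher in Dagad deshi (-0.67, adjusted p = 0.00549). PIP2-7 ran the other way, with 11.67, 11.70 and 11.68 in IR20 against 8.26, 8.80 and 8.95 in Dagad deshi (3.02 ± 0.179 (SE), 8.1-fold, adjusted p = 0.000374). The bright genes of the PIP1 class were close in level, with PIP1-3 1.54-fold higher in Dagad deshi (adjusted p = 0.00482) and PIP1-1 not called (-0.18, adjusted p = 0.12). PIP2-6 was not called either (0.25, adjusted p = 0.0662), but was without Dagad deshi replicate 2 (0.30, adjusted p = 0.0377). Of 15 other aquaporins, 3 were called higher in IR20 and 2 in Dagad deshi (2 and 1 without IR20 replicate 1). TIP3-1, an aquaporin of the vacuole best known from seeds, was 3.01-fold higher in Dagad deshi (13.13, 13.08 and 12.90 against 11.60, 11.39 and 11.35, adjusted p = 0.000392).

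Dehydrins and other LEA proteins differed little between the cultivars at 6 h. Of 8 dehydrins and LEA proteins, 1 (12.5%) was called, against 28.4% of all genes, and the differences ran from -0.19 to 0.37. RAB21, a dehydrin induced by abscisic acid, measured 15.55, 15.47 and 15.44 in Dagad deshi and 15.52, 15.33 and 15.42 in IR20 (-0.06 ± 0.0739 (SE), adjusted p = 0.741), and the arrays overlapped. A slightly dimmer probe set of RAB21 had the opposite sign (0.27, adjusted p = 0.104). It was not called, but all its IR20 arrays lay above all its Dagad deshi arrays. LEA19 measured 14.97, 15.03 and 15.05 against 14.98, 14.93 and 14.93 (-0.07, adjusted p = 0.562), and EM, an LEA protein of the embryo, measured 13.52, 13.51 and 13.33 against 13.72, 13.57 and 13.71 (0.22, adjusted p = 0.166). RAB16D was the called member, 1.29-fold higher in IR20 (15.003, 14.97 and 14.96 against 14.62, 14.62 and 14.58, adjusted p = 0.00547). Its call was lost when the spread was taken from all 18 arrays of the series (adjusted p = 0.769). At 3 h, 7 of the 8 dehydrins and LEA proteins were called in a fit of the 12 drought arrays, as were 9911 of all 17905 genes. P5CS2, the first enzyme of proline synthesis, measured 11.05, 11.38 and 11.47 in IR20 and 10.74, 10.46 and 10.84 in Dagad deshi (0.62 ± 0.147 (SE)), and its adjusted p of 0.0484 did not hold without 5 of the 6 arrays in turn (lowest to highest 0.068 to 0.163).

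In lists of abscisic acid genes, SAPK kinases and the PP2C family, called genes lay more often on the Dagad deshi side. Among 7 genes of synthesis, breakdown and receptors, 2 were called higher in Dagad deshi and none in IR20. These were ZEP, the epoxidase that makes an early precursor (11.21, 10.98 and 11.08 against 10.17, 10.25 and 10.27 in IR20, -0.86 ± 0.0716 (SE), adjusted p = 0.00113), and the receptor PYL11 (11.48, 11.35 and 11.40 against 10.80, 10.83 and 10.99, -0.54 ± 0.0671 (SE), adjusted p = 0.00489). Of 56 PP2C phosphatases, 21 (37.5%) were called higher in Dagad deshi and 6 in IR20, with a median of -0.18. With an array left out these counts were 12 to 18 and 1 to 4. The phosphatases were listed by family name, and which of them act in abscisic acid signalling was not tested. Read by brightest probe sets, OsPP2C61 had the largest difference among them, at a low level (6.59, 6.73 and 6.47 against 5.10, 5.39 and 5.10, -1.40 ± 0.139 (SE), adjusted p = 0.00216). A list of 13 genes held SAPK kinases, bZIP factors and VP1, which is neither. Of these, 5 were called higher in Dagad deshi and none in IR20 (median -0.24, and 3 or 4 called with an array left out). VP1 was among the 5, by a small margin (-0.56, adjusted p = 0.0486). SAPK7 measured 9.92, 9.85 and 9.70 in Dagad deshi and 8.72, 8.80 and 8.94 in IR20 (-1.004 ± 0.0847 (SE), adjusted p = 0.0012), and SAPK1 had a smaller difference of -0.36 ± 0.0445 (SE) (adjusted p = 0.00471).

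Among stress transcription factors the called members were all higher in Dagad deshi. Of 18 DREB, ERF and NAC factors, 7 were called higher in Dagad deshi and none in IR20, with a median of -0.17. The NAC factor ONAC045 measured 9.17, 9.13 and 8.82 in Dagad deshi and 7.51, 7.28 and 7.13 in IR20 (-1.73 ± 0.14 (SE), adjusted p = 0.00103). ONAC068, of the same family, measured 9.07, 9.28 and 9.12 against 8.14, 7.97 and 8.08 (-1.10 ± 0.079 (SE), adjusted p = 0.00071). DREB2B, which binds the dehydration-responsive promoter element, measured 11.24, 10.99 and 11.33 against 9.998, 10.48 and 10.46 (-0.88 ± 0.162 (SE), adjusted p = 0.0199), a call lost without Dagad deshi replicate 1 or 3 or IR20 replicate 3. Of 20 heat shock factors, 8 were called higher in Dagad deshi and none in IR20 (median -0.32; 6 to 8 with an array left out). HSFA2E (11.23, 11.22 and 11.31 against 10.44, 10.48 and 10.36, -0.83 ± 0.0513 (SE)) and HSFA6B (11.78, 11.67 and 11.68 against 10.91, 11.02 and 11.06, -0.71 ± 0.0592 (SE)) were among them. Of 19 small heat shock proteins, 5 were called higher in Dagad deshi and 2 in IR20 (median -0.25). HSP16.9A measured 9.60, 9.85 and 9.79 against 8.71, 8.56 and 8.53 (-1.15 ± 0.0888 (SE), adjusted p = 0.000898), and CLPB1, the chaperone that pulls aggregated proteins apart, 8.67, 8.95 and 8.63 against 8.01, 7.83 and 7.76 (-0.89 ± 0.114 (SE), adjusted p = 0.00541).

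Adjacent members of several families were called in opposite directions. The small heat shock protein HSP17.4 measured 11.31, 11.55 and 11.14 in Dagad deshi and 9.71, 9.48 and 9.31 in IR20 (-1.83 ± 0.144 (SE), adjusted p = 0.000955). Its direct neighbour HSP18.1 measured 7.36, 7.54 and 7.45 in IR20 and 5.02, 5.41 and 4.87 in Dagad deshi (2.35 ± 0.167 (SE), adjusted p = 0.000684). The same held for GER3, given above, and GER2 beside it. GER2 measured 15.17, 15.13 and 15.04 in IR20 and 13.15, 13.21 and 13.56 in Dagad deshi (1.80 ± 0.121 (SE), adjusted p = 0.000554), and the next gene, GER1, was 1.77-fold higher in IR20 (adjusted p = 0.000989, or 0.13 with the spread of all 18 arrays). GLP2, with 8 genes between it and GER3, was 4.41-fold higher in IR20 (9.37, 9.54 and 9.14 against 6.999, 7.42 and 7.21). Laccases oxidise the precursors of lignin. LAC19 measured 10.59, 10.40 and 10.72 in Dagad deshi and 7.03, 7.53 and 6.91 in IR20 (-3.42 ± 0.183 (SE), adjusted p = 0.000261), while its direct neighbour LAC20 measured 5.72, 5.71 and 5.69 in IR20 and 4.60, 4.63 and 4.66 in Dagad deshi, near the floor (1.08 ± 0.0473 (SE), adjusted p = 0.000138). Members of such families are alike in sequence, and whether a probe set reads only its own gene was not tested.

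Several genes of root uptake were higher in IR20. CASP1 proteins build the Casparian strip, the barrier around the root's vascular core, and OsCASP1 measured 8.51, 8.80 and 8.64 in IR20 and 5.09, 5.13 and 5.24 in Dagad deshi (3.50 ± 0.105 (SE), adjusted p = 4.39e-05). Silicon enters the root through Lsi1 and is passed on by Lsi2. Lsi1 measured 13.13, 12.81 and 13.05 in IR20 and 11.63, 11.80 and 11.68 in Dagad deshi (1.29 ± 0.0969 (SE), adjusted p = 0.000806). Lsi2 measured 12.26, 11.99 and 12.04 against 8.92, 9.09 and 8.77 (3.17 ± 0.111 (SE), adjusted p = 7.13e-05), and Lsi6, which unloads silicon in the shoot, 9.98, 9.71 and 9.88 against 8.23, 8.18 and 7.79 (1.79 ± 0.14 (SE), adjusted p = 0.000939). Of 16 genes of ammonium and nitrate transport and assimilation, 8 were called higher in IR20 and 1 in Dagad deshi (median 0.48; 7 to 9 in IR20 with an array left out). NRT2.2, a high-affinity nitrate transporter, measured 9.02, 8.99 and 8.97 in IR20 and 5.60, 5.72 and 6.16 in Dagad deshi (3.17 ± 0.153 (SE), adjusted p = 0.000185). NRT2.3 was near the floor in Dagad deshi (5.57, 5.96 and 6.05 against 4.60, 4.64 and 4.62, 1.24 ± 0.137 (SE), adjusted p = 0.00309). The ammonium transporter AMT1-2 measured 8.26, 8.11 and 8.07 against 5.78, 5.84 and 5.78 (2.35 ± 0.0828 (SE), adjusted p = 7.38e-05).

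Metal and phosphate transport did not run 1 way. Of 39 genes of iron and zinc transport, 7 were called higher in IR20 and 5 in Dagad deshi (median 0.01), or 6 and 4 without IR20 replicate 1. YSL15, which takes up iron bound to phytosiderophores, measured 8.18, 8.40 and 8.21 in IR20 and 5.58, 5.64 and 5.64 in Dagad deshi (2.65 ± 0.0891 (SE), adjusted p = 6.45e-05). YSL12, of the same family, was 3.51-fold higher in IR20 (10.68, 10.43 and 10.53 against 8.54, 8.94 and 8.73). The zinc transporter gene ZIP1 (LOC4326394; the tables give this name to a further gene) measured 8.76, 8.78 and 8.61 in IR20 and 4.92, 5.17 and 5.23 in Dagad deshi (3.61 ± 0.115 (SE), adjusted p = 5.41e-05). ZIP3 was near the floor on all IR20 arrays (4.48, 4.48 and 4.48) and measured 6.39, 6.07 and 6.07 in Dagad deshi (-1.70 ± 0.109 (SE), adjusted p = 0.000482). The iron transporter IRT1 (-0.19) and the nicotianamine synthases NAS1 (-0.22) and NAS2 (-0.23) were not called, and their arrays overlapped. Of 19 genes of phosphate transport and signalling, 2 were called in each direction, and the transporter PHT1-4 was 6.09-fold higher in Dagad deshi (8.56, 8.60 and 8.19 against 6.04, 5.59 and 5.90, adjusted p = 0.0005).

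The RNA came from whole seedlings, so the share of each organ bears on these values, and fewer cells of a type cannot be told apart from less RNA per cell. Of 8 root markers (Lsi1, Lsi2, OsCASP1, NRT2.2, NRT2.3, IRT1, NAS1 and NAS2), 5 were called higher in IR20 and none in Dagad deshi. Their summed intensity was 13730 to 16461 on the IR20 arrays and 5354 to 5986 on the Dagad deshi arrays, and none was near the floor on all 6 arrays. The larger part of both sums came from Lsi1 (mean intensity 8202 in IR20 and 3322 in Dagad deshi) and Lsi2 (4384 and 471.5). IRT1, NAS1 and NAS2 are the 3 that were not called, and their means lay slightly lower in IR20. Of 8 green shoot markers, 4 were called higher in IR20 and none in Dagad deshi, with sums of 120491 to 137443 in IR20 and 89994 to 98001 in Dagad deshi, and 1 was near the floor on all 6 arrays. Both sums were higher in IR20. The part of organ shares in the differences above was not tested.

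Many genes of chlorophyll synthesis and photosynthesis were called higher in IR20. Of 21 genes, 11 (52.4%) were called higher in IR20 and none in Dagad deshi, with a median of 0.55 and differences from -0.60 to 1.47, and the count was 11 with each array left out in turn. CHLH, a subunit of the magnesium chelatase that starts the chlorophyll branch, measured 10.83, 11.24 and 11.19 in IR20 and 9.78, 9.46 and 9.62 in Dagad deshi (1.47 ± 0.14 (SE), adjusted p = 0.00184). CHLG, which attaches the tail of chlorophyll, was 2.51-fold higher (9.49, 9.75 and 9.71 against 8.34, 8.17 and 8.45). CHLP, which makes that tail, was 2.35-fold higher (12.77, 12.89 and 12.75 against 11.79, 11.57 and 11.35). PORA, which reduces protochlorophyllide in light, was 2.48-fold higher (adjusted p = 0.00157, or 0.321 with the spread taken from all 18 arrays). LHCP, a light-harvesting protein, measured 14.29, 14.29 and 14.24 in IR20 and 13.37, 13.50 and 13.32 in Dagad deshi (0.88 ± 0.063 (SE), adjusted p = 0.000699), and RBCS, the small subunit of Rubisco, 14.31, 14.03 and 14.22 against 13.51, 13.43 and 13.37 (0.75 ± 0.0871 (SE), adjusted p = 0.00373). These genes move with the green shoot sums given above, which hold LHCP and RBCS themselves.

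Kinesins and tubulins were called more often in IR20, and cyclins less clearly so. Of 44 kinesins and tubulins, 20 (45.5%) were called higher in IR20 and 1 in Dagad deshi, with a median of 0.32. With an array left out there were 13 to 16, and 16 without IR20 replicate 1. TUB8, a beta-tubulin, measured 11.54, 11.53 and 11.50 in IR20 and 9.91, 9.85 and 10.04 in Dagad deshi (1.59 ± 0.0603 (SE), adjusted p = 8.97e-05). Of 39 cyclins, cyclin-dependent kinases and their inhibitors, 10 were called higher in IR20 and 3 in Dagad deshi (median 0.08). When an array was left out, 5 to 9 were called in IR20 and 1 to 4 in Dagad deshi. Without IR20 replicate 1 the counts were 6 and 4. CDKB2-1 and CYCB2-2, which act at entry into mitosis, were 1.97-fold (8.30, 8.31 and 8.25 against 7.40, 7.29 and 7.25) and 2.24-fold (9.55, 9.40 and 9.35 against 8.24, 8.44 and 8.13) higher in IR20. DNA replication proteins did not share that side, with 3 of 29 called higher in IR20 and 7 in Dagad deshi (median -0.07; 2 to 6 in Dagad deshi with an array left out).

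Of 28 cellulose synthases and related enzymes, 12 were called higher in IR20 and 3 in Dagad deshi, with a median of 0.26 and 12 or 13 in IR20 with an array left out. CESA8, an enzyme of cellulose synthesis, measured 12.03, 12.34 and 12.15 in IR20 and 11.34, 11.12 and 11.39 in Dagad deshi (0.89 ± 0.109 (SE), adjusted p = 0.00455). CSLC2, of a family that makes the backbone of xyloglucan, was 3.76-fold higher in IR20 (9.41, 9.41 and 9.44 against 7.57, 7.33 and 7.64, adjusted p = 0.000173). CSLE1 was the widest exception, 6.79-fold higher in Dagad deshi (10.34, 10.15 and 10.22 against 7.38, 7.45 and 7.59, adjusted p = 3.99e-05). Expansins loosen the wall for growth. Of 30 expansins and xyloglucan transferases, 9 were called higher in IR20 and 3 in Dagad deshi (median 0.06). EXPB2 measured 10.74, 10.88 and 11.01 in IR20 and 7.85, 7.91 and 7.88 in Dagad deshi (2.999 ± 0.0762 (SE), adjusted p = 2.89e-05), and EXPA3 10.01, 9.90 and 9.86 against 7.86, 7.75 and 7.51 (2.22 ± 0.103 (SE), adjusted p = 0.000167). Endo-glucanases of the GLU family were split, with 3 of 11 called in each direction, as were enzymes of lignin precursors and laccases, with 7 of 27 called higher in IR20 and 6 in Dagad deshi. GLU15 was near the floor in Dagad deshi (4.49, 4.47 and 4.59) and measured 7.93, 7.61 and 7.72 in IR20 (3.23 ± 0.123 (SE), adjusted p = 8.97e-05).

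**Figure D4:**
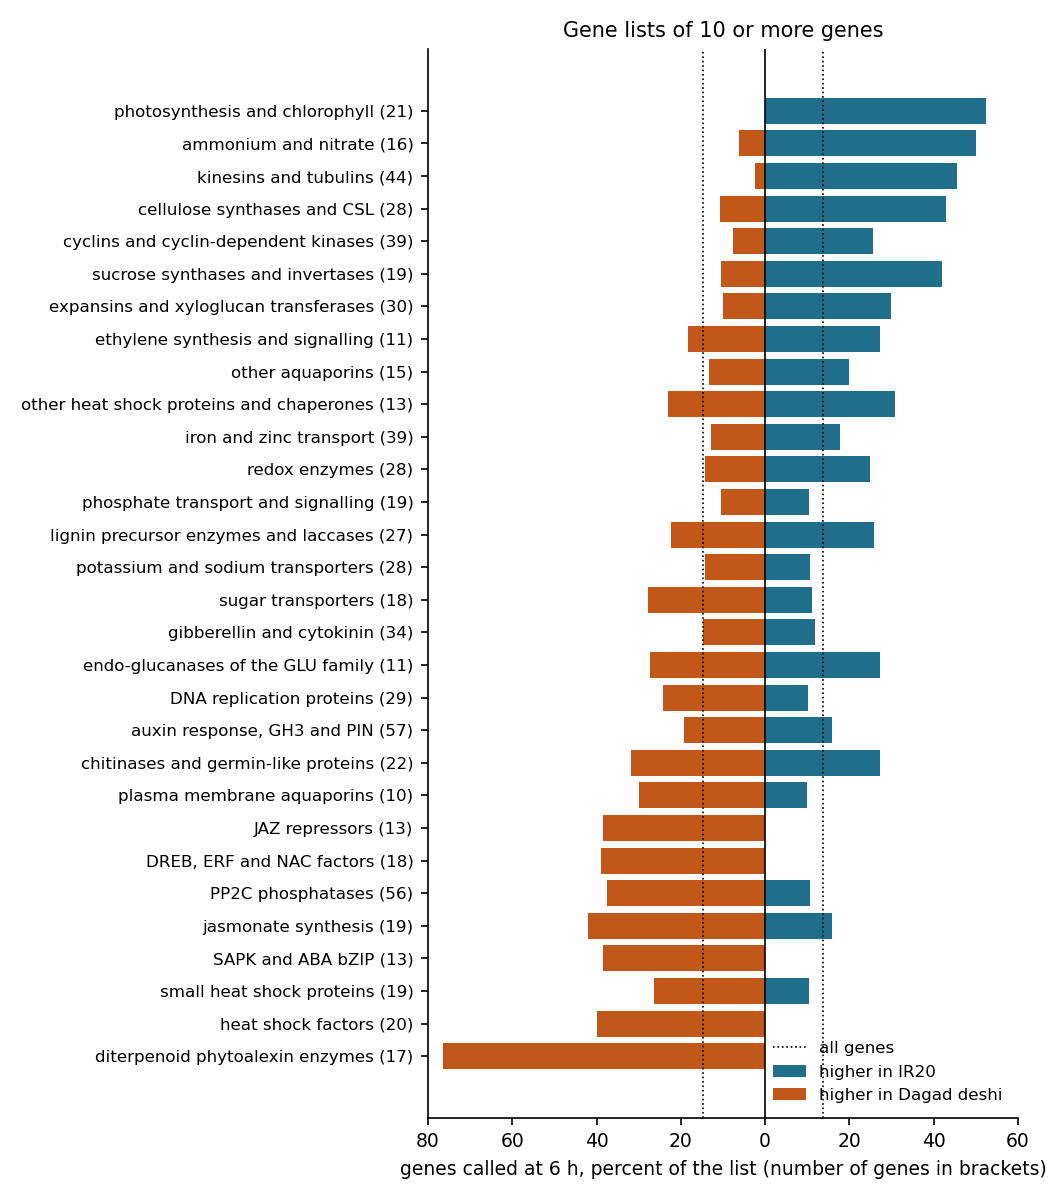
Share of each gene list called higher in IR20 (right) and higher in Dagad deshi (left), in percent of the genes named in brackets, for lists of 10 or more genes, ordered by the median difference. The dotted lines mark the shares over all 17905 genes (13.7% and 14.7%). These include genes near the floor, so a list of well expressed genes may exceed them without differing more than other expressed genes. Photosynthesis (52.4%) lies farthest to the right. The diterpenoid phytoalexin enzymes, a list added after the values were seen, lie farthest to the left.

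Starch and sugar genes differed by class. Of 5 alpha-amylases, 2 were called higher in Dagad deshi and none in IR20, where 1 was called without IR20 replicate 1. Besides AMY1.1, this was AMY1.3, which measured 9.15, 8.90 and 8.74 in Dagad deshi and 6.30, 6.37 and 6.37 in IR20 (-2.59 ± 0.116 (SE), adjusted p = 0.000148). Of 14 markers of the seed remnant (alpha-amylases, storage proteins and a starch branching enzyme), 3 were called higher in Dagad deshi and none in IR20 (2 and 1 without IR20 replicate 1), and 6 were near the floor on all 6 arrays. Their summed intensity was 10762 to 25972 in Dagad deshi and 8411 to 9159 in IR20. AMY1.1 is part of that sum and weighs heavily in it, with a mean intensity of 11422 in Dagad deshi and 47.7 in IR20. The sums are therefore largely a reading of this 1 gene where they differ. The part of seed remnants in the difference of AMY1.1 was not tested. Of 19 sucrose synthases, sucrose-phosphate synthases and invertases, 8 were called higher in IR20 and 2 in Dagad deshi (median 0.08; 7 in IR20 and 0 to 2 in Dagad deshi with an array left out). SUS1, a sucrose synthase, measured 12.92, 12.84 and 13.06 in IR20 and 12.003, 12.02 and 12.11 in Dagad deshi (0.90 ± 0.0705 (SE), adjusted p = 0.000931, or 0.0594 with the spread of all 18 arrays). SUS3 measured 7.25, 6.90 and 6.91 against 5.27, 5.14 and 4.88 (1.92 ± 0.166 (SE), adjusted p = 0.00131), and the cell wall invertase CIN7 11.50, 11.46 and 11.33 against 9.44, 9.41 and 9.10 (2.12 ± 0.107 (SE), adjusted p = 0.000214).

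Of 18 sugar transporters, 5 were called higher in Dagad deshi and 2 in IR20, with a median of -0.05. When an array was left out, 2 to 4 were called in Dagad deshi and 2 in IR20. SWEET1B, of the SWEET family of sugar exporters, measured 9.09, 8.66 and 8.74 in Dagad deshi and 6.97, 6.78 and 6.70 in IR20 (-2.01 ± 0.139 (SE), adjusted p = 0.000614). SWEET11 measured 7.91, 7.82 and 7.39 against 6.87, 6.76 and 6.63 (-0.95 ± 0.158 (SE), adjusted p = 0.0135), a call lost without Dagad deshi replicate 2 or IR20 replicate 2 or 3. TPP1, a trehalose-phosphate phosphatase, measured 11.29, 11.20 and 10.86 against 10.57, 10.60 and 10.53 (-0.55 ± 0.117 (SE), adjusted p = 0.033), and its call held under the omission of 1 array only, Dagad deshi replicate 3.

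Jasmonate genes were called more often in Dagad deshi. Of 13 JAZ repressors, which hold back jasmonate responses and are themselves induced by the hormone, 5 were called higher in Dagad deshi and none in IR20 (median -0.13; 4 to 6 with an array left out). JAZ8 measured 10.77, 10.82 and 10.84 in Dagad deshi and 8.24, 8.34 and 8.20 in IR20 (-2.55 ± 0.0548 (SE), 5.86-fold, adjusted p = 1.65e-05), and JAZ5 8.05, 8.31 and 7.99 against 6.77, 6.39 and 6.85 (-1.44 ± 0.157 (SE), adjusted p = 0.00292). Of 19 genes of jasmonate synthesis, 8 were called higher in Dagad deshi and 3 in IR20 (median -0.24), with 5 in Dagad deshi without IR20 replicate 1. The lipoxygenase LOX9 measured 9.99, 10.16 and 10.12 in Dagad deshi and 8.12, 8.15 and 7.95 in IR20 (-2.02 ± 0.0786 (SE), adjusted p = 9.53e-05). Allene oxide synthases, which take the next step, split by gene. AOS2 was 2.05-fold higher in Dagad deshi (8.37, 8.50 and 8.38 against 7.37, 7.44 and 7.33, adjusted p = 0.000488), and AOS4 was 4.85-fold higher in IR20 (8.33, 8.15 and 8.15 against 5.96, 5.92 and 5.91, adjusted p = 7.8e-05).

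In ethylene synthesis and signalling, 3 of 11 genes were called higher in IR20 and 2 in Dagad deshi. Besides ACO1, the receptor ERS2 was higher in IR20 (8.39, 8.39 and 8.40 against 7.41, 7.28 and 7.19, 1.10 ± 0.0733 (SE), adjusted p = 0.000543). EIL1B, of the EIN3-like family of ethylene transcription factors, was 5.95-fold higher in Dagad deshi (10.48, 10.57 and 10.36 against 8.02, 7.96 and 7.71, adjusted p = 0.00011). Auxin genes were called in both directions, 9 of 57 higher in IR20 and 11 in Dagad deshi (median -0.07), and as few as 5 in each direction with an array left out. The repressor IAA13 measured 13.22, 13.16 and 13.27 in IR20 and 11.18, 11.11 and 11.09 in Dagad deshi (2.09 ± 0.0497 (SE), adjusted p = 2.33e-05). GH3.2, which ties auxin to amino acids, measured 11.14, 11.21 and 10.98 in Dagad deshi and 9.17, 9.11 and 8.92 in IR20 (-2.04 ± 0.0929 (SE), adjusted p = 0.000154).

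GAPDH, actin, ubiquitin and cyclophilin genes, which are used as references in quantitative PCR, were looked up as 4 families. Of 3 GAPDH genes none was called. GAPC measured 14.79, 14.76 and 14.80 in Dagad deshi and 14.65, 14.70 and 14.75 in IR20 (-0.08 ± 0.0519 (SE), adjusted p = 0.458), GAPC3 had a difference of -0.07, and GAPC2 lay just above the floor in both cultivars (0.01). Of 4 actins none was called by its brightest probe set. ACT7 (0.02), ACT2 (0.10) and ACT3 (-0.06) overlapped between the cultivars. ACT1 measured 14.18, 14.39 and 14.21 in IR20 and 13.51, 13.89 and 13.94 in Dagad deshi (0.48 ± 0.136 (SE), adjusted p = 0.0856), with no overlap, and a dimmer probe set of ACT1 was called higher in IR20 (0.64, adjusted p = 0.00191). Dimmer probe sets of ACT3 and GAPC3 were low on IR20 replicate 1, the array with the high 3'/5' index. For ACT3 it measured 5.97 against 8.54 and 8.48 on the other IR20 arrays, and Dagad deshi replicate 2 was also low in its group (7.18 against 8.54 and 8.53). For GAPC3 it measured 10.89 against 11.79 and 11.86, with 11.79 to 11.95 on the Dagad deshi arrays.

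Of 6 ubiquitin genes, 2 were called higher in IR20 and 1 in Dagad deshi. UBQ5, whose product joins ubiquitin to its relative RUB, had the largest difference of the 4 families, with 9.67, 9.98 and 9.93 in Dagad deshi and 9.11, 8.77 and 8.89 in IR20 (-0.94 ± 0.123 (SE), adjusted p = 0.00589). UBQ2 (0.39 ± 0.0686 (SE), adjusted p = 0.0171) and RPS27AA, a fusion of ubiquitin with a ribosomal protein (0.30 ± 0.0559 (SE), adjusted p = 0.0201), were called higher in IR20 by small margins, UBQ2 in 2 and RPS27AA in 1 of the 6 fits with an array left out. UBQ1 (0.09), RPS27AB (0.20) and UBQ4 (-0.30) were not called, though UBQ4 was without Dagad deshi replicate 3 (-0.41, adjusted p = 0.0136). The cyclophilin OsCyp3 measured 13.24, 13.36 and 13.25 in Dagad deshi and 13.18, 12.90 and 12.99 in IR20 and was not called (-0.26 ± 0.0851 (SE), adjusted p = 0.127), but was called without IR20 replicate 1 (-0.34, adjusted p = 0.0413). For a reference gene in a comparison of these cultivars, the differences of the genes not called thus ran from -0.30 to 0.48.

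The same cultivars were also measured after 3 h of drought, on arrays that share none with the comparison above. At 3 h, 15556 probe sets (27.2%) were called in a fit of the 12 drought arrays, which called 10738 at 6 h. The 3'/5' index separated the cultivars at that time, at 2.79 to 2.89 on the IR20 arrays and 1.80 to 2.14 on the Dagad deshi arrays, and its part in the 3 h differences was not tested. Of the 2180 probe sets called at 6 h with a difference over 1, 2093 had the same sign at 3 h, 1998 of them called, and 36 were called with the opposite sign. Over all probe sets, 53.3% had the same sign at both times, and the differences at 3 h and 6 h correlated with r = 0.767, a value across probe sets, which are not independent. The difference between cultivars at 6 h minus that at 3 h was called for 7733 probe sets (13.5%) and for 937 of the 2180.

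Genes whose difference had opposite signs at the 2 times included AMY1.1 and EP3A. AMY1.1 was higher in IR20 at 3 h by 4.88 (adjusted p = 0.000314) and higher in Dagad deshi at 6 h, so that the 6 h difference minus the 3 h difference was -11.82 (adjusted p = 3.85e-05). EP3A went from 2.02 at 3 h to -4.63 at 6 h (change -6.65, adjusted p = 3.23e-05), and LOC4330830 from 1.05, which was not called (adjusted p = 0.475), to -5.95 (change -6.997, adjusted p = 0.00184). SWEET11 went from 1.17 to -0.95 (change -2.13, adjusted p = 4.71e-05) and TPP1 from 1.005 to -0.55 (change -1.56, adjusted p = 4.29e-05). The dehydrin RAB16D moved the other way, from -2.62 to 0.37 (change 2.99, adjusted p = 1.74e-06), as did P5CS2, from -0.61 to 0.62 (change 1.23, adjusted p = 0.00064).

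Other genes differed between the cultivars at 6 h and hardly at 3 h. NRT2.2 had a difference of -0.24 at 3 h (adjusted p = 0.25) and of 3.17 at 6 h (change 3.41, adjusted p = 2.79e-06). SUS3 went from 0.02 to 1.92 and RBCS from -0.01 to 0.75. KSL4 went from 0.07 to -1.29, alone among the called phytoalexin enzymes of its stretch, since CPS4 (-3.14), CYP99A3 (-3.74), OsMAS (-1.06) and CYP99A2 (-1.26) were all higher in Dagad deshi at 3 h already. Several stress genes had wider differences at 3 h. HSFA6B went from -2.21 to -0.71 (change 1.50, adjusted p = 1.12e-06), CLPB1 from -2.69 to -0.89 (change 1.80, adjusted p = 1.77e-05), and SAPK1 from -1.59 to -0.36 (change 1.23, adjusted p = 6.19e-07). Among genes with large differences at both times, the change was not called in ACO1 (6.80 at 3 h), GER3 (-5.10), LOC4347027 (7.49), LAC19 (-3.86) and Lsi2 (3.08). It was called in LOC4342250 (4.86 at 3 h and 6.80 at 6 h), LOC4336614 (5.84 and 6.76), PRX74 (3.97 and 4.89) and BURP10 (-4.52 and -5.36), which kept their sign.

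**Figure D5:**
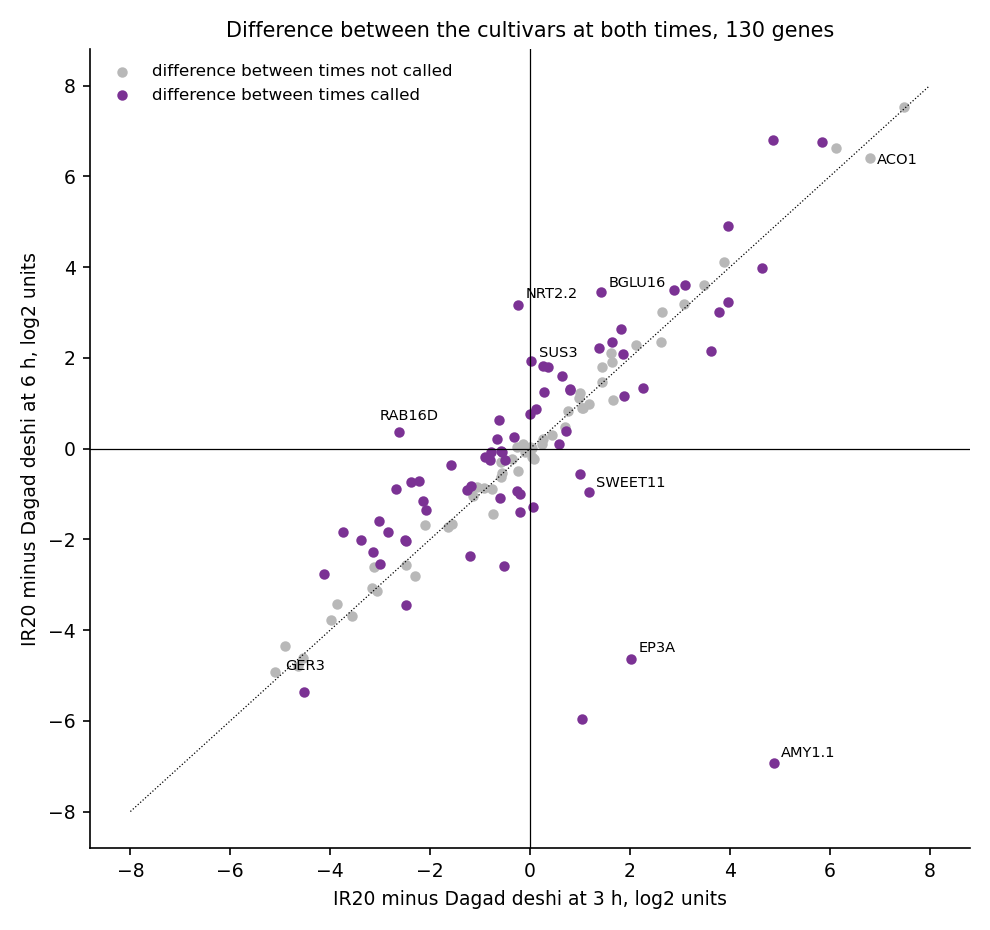
Difference between the cultivars (IR20 minus Dagad deshi, log2 units) at 6 h of drought (vertical) against that at 3 h (horizontal) for the 130 genes named here, n = 3 arrays per cultivar and time; purple points have a called difference between the times and the dotted line marks equal differences. AMY1.1 and EP3A lie at the lower right, higher in IR20 at 3 h and in Dagad deshi at 6 h, while genes such as ACO1 and GER3 lie along the line.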

How the data were processed

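Per the labels, total RNA of whole seedlings was labelled by in vitro transcription and hybridised to rice expression arrays with 1 colour. The deposited values are linear intensities per probe set, for which the submitters' processing notes name GCOS; the normalization between arrays is not given in the sources used here. The authors' intensity values were read for 57381 probe sets, 123 control probe sets were left out, 16 was added and log2 taken, with no further normalization and no filter. The 6 arrays of the comparison were fitted with limma 3.58.1 in R 4.3.3 (lmFit, then eBayes with a trend), with p-values adjusted by Benjamini-Hochberg over 57258 probe sets. The 3 h contrast and the difference between the times came from a fit of the 12 drought arrays with 4 group means.

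Probe sets were named from the platform annotation (22436 with 1 gene, 95 with several, 34727 with none listed) and symbols from RefSeq (assembly ASM3414082v1), which was also used for the order of neighbouring genes. The probe set of the highest mean stands for a gene. Genes were named as the 12 largest called differences in each direction, 3 per direction known only by number, up to 4 called members of a list, and the reference families, and others are said to have been picked after the values were seen. The members and lists were chosen with earlier results of these data known. On simulated data made from these arrays, 75 of 100 probe sets changed by 1 log2 unit and 95 of 100 changed by 2 were called, with 9 false calls among 57258. The changed probe sets were drawn from those above the 30th percentile of mean level, and the noise was independent between probe sets and arrays. Far fewer probe sets were changed than were called in the data. These shares may therefore not hold for the data themselves. The number of arrays limits the precision. Alternatives changed the pseudocount, filter, normalization, variance prior, arrays fitted, a term for the 3'/5' index, a fold threshold and the replicate number as a block, and left out each array in turn.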

Additional observations from a re-analysis of the deposited data

Results flagged for a closer look

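For 69 of the 130 genes named, the difference between the cultivars at 6 h was itself tested to differ from that at 3 h (limma over the 12 drought arrays, adjusted p under 0.05). Over all probe sets 13.5% were called in that test, and 937 of the 2180 called at 6 h with a difference over 1. Many of the named genes were picked for their 6 h difference, which is a term of the tested contrast. Their share is therefore not to be read against 13.5%. The values in brackets are the 6 h difference minus the 3 h difference, in log2 units of IR20 minus Dagad deshi, so that a negative value is a shift towards Dagad deshi. The 3'/5' index was 2.79 to 2.89 on the IR20 arrays at 3 h and 1.80 to 2.14 on the Dagad deshi arrays at 3 h, and its part in these shifts was not tested. Of the 12 fits with an array left out, 10 lost the shift of HSP18.1, IAA13, PIP2-7 and CYP99A2, 9 that of OsPP2C45, 8 that of PORA, 7 that of Lsi1, 5 those of YSL15 and GH3.2, 4 that of PRX112 and 1 that of CYP76M8. With a pseudocount of 1, the shifts of HSP18.1 (adjusted p = 0.227), PRX112 (0.538) and YSL15 (0.0649) were not called.

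Seed and sugar genes shifted towards Dagad deshi in AMY1.1 (-11.82), LOC4330830 (-7.00), EP3A (-6.65), SWEET11 (-2.13), AMY1.3 (-2.06) and TPP1 (-1.56), and towards IR20 in SUS3 (1.90), SWEET1B (1.37) and TIP3-1 (1.43). Among protective and heat shock genes all those flagged shifted towards IR20, namely RAB16D (2.99), RAB21 (0.53), EM (0.88), LEA19 (0.72), P5CS2 (1.23), CLPB1 (1.80), HSFA6B (1.50), HSFA2E (0.35), HSP16.9A (1.00), HSP17.4 (1.01) and HSP18.1 (0.71). Of the SAPK kinases, SAPK1 (1.23) shifted towards IR20 and SAPK7 (-0.80) towards Dagad deshi. Of the PP2C family, OsPP2C45 (0.24) shifted towards IR20 and OsPP2C61 (-1.19) towards Dagad deshi. The NAC factor ONAC068 (-0.50) shifted towards Dagad deshi.

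Nutrient and root genes shifted towards IR20 in NRT2.2 (3.41), NRT2.3 (0.95), Lsi1 (0.50), OsCASP1 (0.63), YSL12 (1.54) and YSL15 (0.82). Aquaporins split, with PIP1-1 (0.72) and PIP2-6 (0.58) towards IR20 and PIP2-4 (-1.18), PIP2-5 (-0.96) and PIP2-7 (-0.76) towards Dagad deshi. Of the phytoalexin enzymes, CYP99A3 (1.91), CYP71Z7 (1.64), CPS4 (0.86), CYP76M8 (0.73) and CYP99A2 (0.35) shifted towards IR20, which narrowed their difference, and KSL4 (-1.36) shifted towards Dagad deshi. Hormone genes flagged were GH3.2 (0.43), IAA13 (0.22), JAZ8 (0.45) and LOX9 (0.48), all towards IR20.

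In photosynthesis LHCP (0.75), RBCS (0.76) and PORA (0.52) shifted towards IR20 and CHLG (-0.94) towards Dagad deshi. In growth and the cell wall TUB8 (0.96), EXPA3 (0.84), CSLE1 (1.37), BGLU16 (2.03), PRX74 (0.93) and PRX112 (0.49) shifted towards IR20, and CYCB2-2 (-0.71), GLU15 (-0.72), BURP2 (-0.66) and BURP10 (-0.84) towards Dagad deshi. Of the germin-like genes, GER2 (1.44) shifted towards IR20 and GLP2 (-1.49) towards Dagad deshi, and both were higher in IR20 at both times. Of the genes known only by number, LOC4342250 (1.95) and LOC4336614 (0.93) shifted towards IR20. Among reference families GAPC (0.48) and OsCyp3 (0.54) shifted towards IR20 and ACT2 (-0.47), UBQ2 (-0.34) and UBQ5 (-0.68) towards Dagad deshi.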

How the results depend on the processing

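Among the genes named, no called difference turned direction under an alternative. The count of 7834 called probe sets (3747 higher in IR20, 4087 in Dagad deshi) fell to 819 (451 and 368) when the difference had to exceed 1 log2 unit by test. With the replicate number as a block it was 3742 (1884 and 1858). The labels do not say that a number marks a shared culture. Same-numbered arrays did not consistently deviate together from their group means (r = -0.454, -0.552 and 0.319 for numbers 1 to 3), so the numbers were not taken to pair the samples. Across the cultivars, the deviations of IR20 replicate 1 and Dagad deshi replicate 2 were the most alike (r = 0.699), and the source of this was not tested. Leaving out 1 array gave 5329 to 6946 in all, 2749 to 3425 higher in IR20, and 2528 to 3638 higher in Dagad deshi, with 2603 without IR20 replicate 2 and 2528 without IR20 replicate 3. For the difference between 6 h and 3 h (7733), leaving out 1 array gave 6406 to 7755 and the block 7289. The difference of the 3'/5' index between cultivars ran from -0.167 to 0.516 with an array left out, the lowest and only negative value being that without IR20 replicate 1.

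Of the 130 genes named, 106 were called at 6 h. Of these, 97 were called without each array in turn, 91 under every alternative other than the block and the fold threshold, and 56 under every alternative that tested them. The block ended the calls of JAZ5 (adjusted p = 0.0576), PYL11 (0.0519), CLPB1 (0.051), CESA8 (0.067), UBQ5 (0.0809) and RAB16D (0.0777), besides genes whose calls were also lost without an array. With any array left out, fewer PP2C phosphatases were called higher in Dagad deshi (12 to 18 against 21), and fewer kinesins and tubulins (13 to 16 against 20) and cyclins (5 to 9 against 10) higher in IR20. With the spread taken from 18 arrays, 10 named genes were no longer called, namely P5CS2 (adjusted p = 0.163), KSL7 (0.161), CYP71Z7 (0.403), SUS1 (0.0594), CYP99A2 (0.25), OsPP2C45 by its brightest probe set (0.0567), PORA (0.321), DREB2B (0.119), GER1 (0.13) and RAB16D (0.769). Fewer arrays also leave fewer degrees of freedom. Values near the floor and the lack of detection calls limit what can be read of genes with low intensity.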
